A study of Chlorocebus aethiops with 3 samples.

Results

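The mRNAs described here encode proteins of the large subunit of the cytosolic ribosome, the RPL and RPLP genes. They were chosen by function, as a list of 51 RefSeq mRNA accessions, with earlier results of these arrays known but without use of a measured value. Of the 51, 41 are annotated on the array, by 102 probes, and each was represented by its probe with the highest mean log2 signal. The other 10 accessions (NM_000970, NM_033301, NM_000661, NM_000977, NM_003973, NM_000994, NM_000995, NM_033643, NM_021104 and NM_001002) were not found among the array's annotations and are not analysed here. All 41 members on the array passed the detection filter, as part of 14522 accessions tested among 32695 annotated. The files pair probes with accessions and give no gene symbol, so single members are named by accession, and which protein each encodes is not stated.

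The cells were COS-7, an established line from African green monkey kidney. Cells of both groups were transfected in 2 rounds: the knockdown group with siRNAs against the coding region of human RNA helicase A (RHA), the control group with scrambled siRNA, each at 0.5 nM. Both groups spent 4 hours in serum-free medium at transfection and then 24 hours with 10% FBS. Cytoplasmic lysates were run on sucrose gradients of 15% to 45%, and the pooled heavy polysome fractions gave the RNA. Each of 3 arrays, 1 for each biological replicate, held control RNA in Cy3 and knockdown RNA in Cy5. No array had the dyes swapped, and the arrays share 1 slide, so a dye effect and the knockdown cannot be told apart. The probes and the siRNAs alike follow human sequence. The RHA message itself, accession NM_001357, had log2 ratios of knockdown over control of -0.041, -0.20 and -0.60 in heavy polysomes and did not pass the test (limma adjusted p = 0.221), so the groups carry the names of their labels. A ratio compares how much of the heavy polysome RNA a message makes up in each group, and altered abundance of the mRNA and altered ribosome loading cannot be told apart in it. In bulk RNA, fewer cells with a message and less of it per cell cannot be told apart either.

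Large subunit proteins surround the ribosomal RNA that catalyses peptide bond formation. Others form the exit of the polypeptide tunnel, the stalk of acidic proteins that recruits elongation factors, or the particle that carries 5S ribosomal RNA. Their mRNAs are short and abundant and begin with a terminal oligopyrimidine (TOP) tract, through which growth signals move them as a class between translating and resting pools. A short coding region holds few ribosomes at once, so such mRNAs reach the heaviest polysomes less readily than long ones. The genes have many processed pseudogenes, and a probe can bind RNA of a close copy. RHA is a DEAH-box helicase known to promote translation of selected mRNAs with structured leaders.

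Set against probes of like brightness on the same array, some large subunit protein mRNAs were higher and some lower in heavy polysomes after RHA knockdown. Of 41 members, 5 had a rise and 6 a fall past the threshold (limma, p adjusted over all accessions below 0.05), while 30 did not pass the test. That is 26.8% of the members, beside 19.2% of all accessions tested. By direction, 9.9% of all accessions rose and 9.32% fell. All 41 members lay in the brightest 5% of accessions, where a larger share, 41.3% of the 686 others, was called. The median log2 ratio of the members was -0.00069, beside 0.0099 over all accessions, with 20 members above 0 and 21 below. Loess centres bright probes on 0, and all members are bright, so this median and this split say nothing of a shift of the whole class. Ratios within the class ran from -1.45 to 1.00, with lower and upper quartiles of -0.33 and 0.38, where all accessions had -0.22 and 0.23. The called members that changed by at least 2-fold were NM_001004, NM_000967 and NM_015414, 3 in number and all fallen, beside 4.99% of all accessions called at that size in either direction. With each array centred on its median instead, 20 members rose, 0 fell (limma; also 0 at an unadjusted p under 0.05), beside 18.9% and 0.317% of all accessions, and the members' median was 0.98. Centred on the median of the tested accessions, 20 rose and 1 fell, beside 17.5% and 6.35%. With a normexp offset of 0 in place of 50, 8 rose and 4 fell, beside 16% and 13.6%, and when dim probes were kept 2 rose and 2 fell, beside 2.54% and 2.51%. Agilent's own log ratio gave 4 risen and 4 fallen members, beside 15.9% and 12.1%, and an intensity trend in the variance gave 4 and 4, beside 16.1% and 14.6%. In these last 2 settings, and by a small margin with an offset of 0, the members' share of calls lay below that of all accessions, not above it. At an unadjusted p under 0.05, 18 members passed in the limma fit, beside 35.7% of all accessions.

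**Figure D1:**
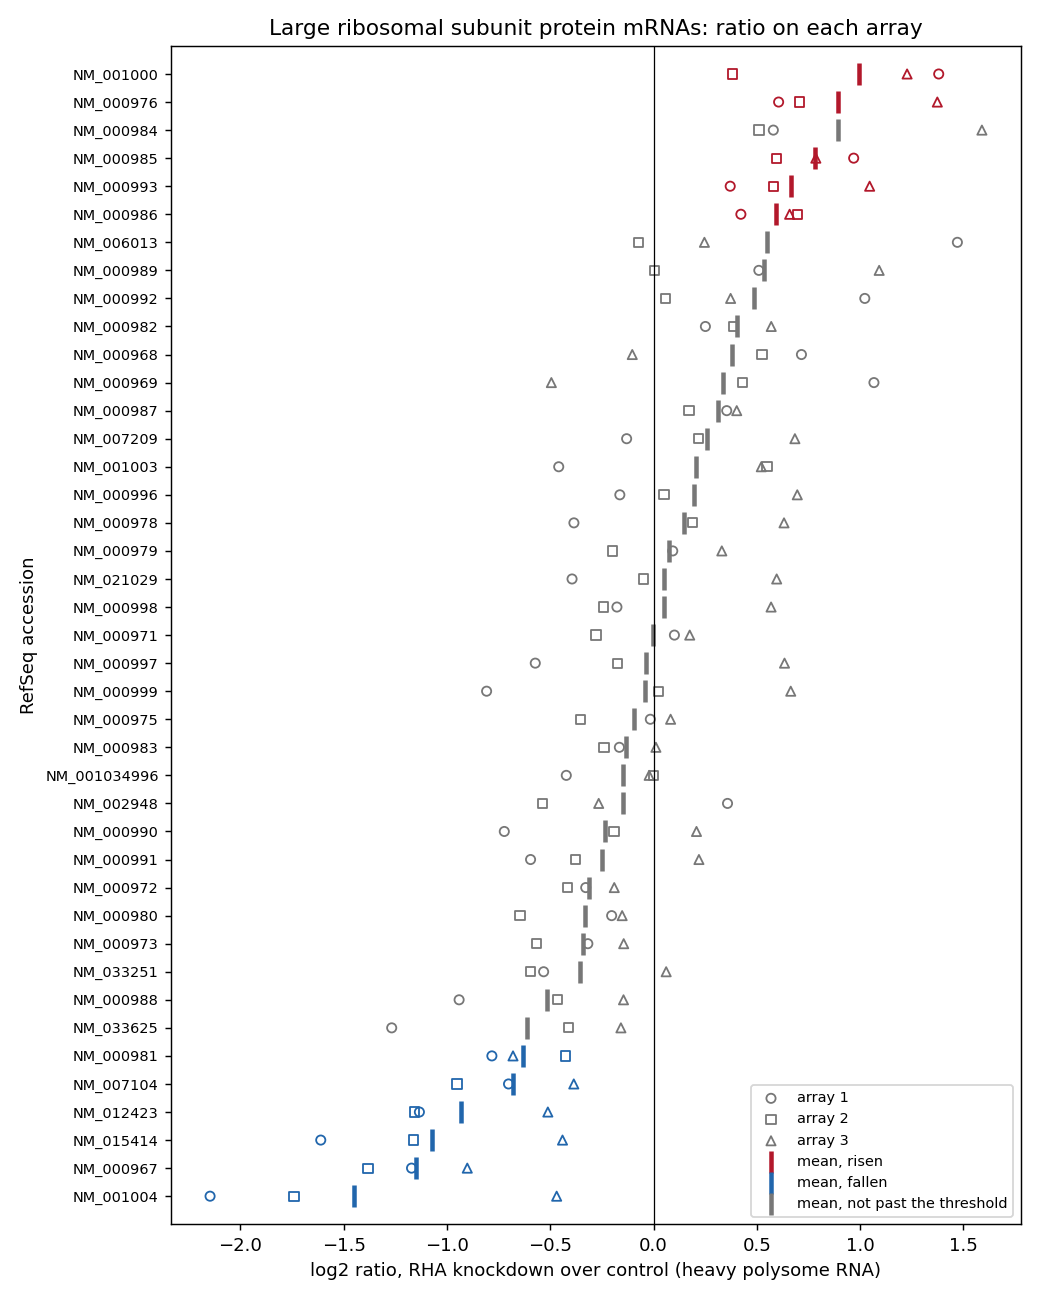
Log2 ratio of knockdown over control (x axis) for the 41 members (y axis, ordered by mean), with an open symbol for each of the 3 arrays and a bar for their mean. Red marks the 5 members that rose, blue the 6 that fell and grey the 30 that did not pass the test; means run from -1.45 to 1.00. With median centring on all probes in place of loess, 20 rose and 0 fell, and with centring on the tested accessions 20 rose and 1 fell.

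The members with a rise were NM_001000, NM_000976, NM_000985, NM_000993 and NM_000986. Levels are given as normalized log2 signals on replicates 1, 2 and 3; they carry the brightness of each array, so control and knockdown are compared within an array. NM_001000 had 10.56, 11.52 and 12.83 in control and 11.94, 11.90 and 14.06 in knockdown. The knockdown signal was the higher on every array, by the smallest margin on replicate 2. Log2 ratios were 1.38, 0.38 and 1.23 and averaged 1.00 ± 0.54 (SD, n = 3), 1.99-fold up, with a limma adjusted p of 0.0343. For NM_000976 the control signals were 14.91, 14.52 and 15.26 and the knockdown signals 15.52, 15.22 and 16.63, higher after knockdown on every array and most on replicate 3. The mean log2 ratio was 0.89 ± 0.42 (SD, n = 3), 1.86-fold, at a limma adjusted p of 0.0294. Signals of NM_000985 went from 11.51, 11.68 and 13.63 to 12.48, 12.27 and 14.41, and the ratios of the 3 arrays were the closest together among these first 3 members. It averaged 0.78 ± 0.19 (SD, n = 3), 1.72-fold (limma adjusted p = 0.0190). NM_000993 had 15.06, 14.63 and 15.60 in control and 15.43, 15.21 and 16.65 in knockdown, with the largest gap on replicate 3. Its mean ratio was 0.67 ± 0.35 (SD, n = 3), at a limma adjusted p of 0.0417. In NM_000986 the change was the smallest of the 5, from 13.56, 13.08 and 14.84 in control to 13.99, 13.78 and 15.50 in knockdown, a mean ratio of 0.59 ± 0.15 (SD, n = 3; limma adjusted p = 0.0269). Over the 3 arrays, the control and knockdown signals of all 5 overlapped, and replicate 3 was the brightest in both channels. All 5 stayed risen past the threshold with either median centring in place of loess. Those settings raised the members' median to 0.98 and 0.66, so they lend the rises no support. With Agilent's log ratio NM_000993 and NM_000986 missed the threshold (limma adjusted p = 0.0541 and 0.140). They also missed it with an intensity trend in the variance (limma adjusted p = 0.0503 and 0.0816), and the others kept their calls in both settings.

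NM_000984 had the third highest mean of the class and just missed the threshold. Its signals were 15.33, 15.02 and 15.24 in control and 15.91, 15.53 and 16.83 in knockdown. It was the only member, of 41, whose knockdown signals all lay above its control signals, as they did for 2.2% of all accessions. Its ratios of 0.58, 0.51 and 1.59 average 0.89 ± 0.60 (SD, n = 3), with a 95% interval of 0.30 to 1.49 and a limma adjusted p of 0.0552. Replicate 3 stood far above the other arrays, and without it the mean was 0.55, at a limma adjusted p of 0.0499. All 5 probes of NM_000984 gave mean ratios above 0, from 0.89 to 1.40, and 4 of them passed the test over all probes.

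The members with a fall were NM_001004, NM_000967, NM_015414, NM_012423, NM_007104 and NM_000981. NM_001004 had normalized log2 signals of 15.96, 15.36 and 16.50 in control and 13.82, 13.62 and 16.04 in knockdown. The knockdown signal was far below the control on replicates 1 and 2 and closer to it on replicate 3. The ratios were -2.15, -1.74 and -0.47, averaging -1.45 ± 0.87 (SD, n = 3) or 0.366 times control, with a 95% interval of -2.27 to -0.63 and a limma adjusted p of 0.0375. NM_000967 went from 12.23, 12.42 and 14.05 in control to 11.06, 11.04 and 13.15 in knockdown, a fall of like size on all 3 arrays. Its mean was -1.15 ± 0.24 (SD, n = 3), 0.450 times the control level, at a limma adjusted p of 0.0148, the lowest in the class. For NM_015414 the control signals were 14.23, 13.52 and 15.39 and the knockdown signals 12.62, 12.36 and 14.95, again with the smallest gap on replicate 3. The mean was -1.07 ± 0.59 (SD, n = 3), 0.476 times the control level (limma adjusted p = 0.0344). NM_012423 had 14.14, 13.92 and 15.58 in control and 13.00, 12.76 and 15.07 in knockdown, with a mean ratio of -0.93 ± 0.37 (SD, n = 3) and a limma adjusted p of 0.0240. The falls of the last 2 members, NM_007104 and NM_000981, were smaller and depended on the setting. They missed the threshold with Agilent's log ratio (limma adjusted p = 0.109 and 0.159) and an intensity trend in the variance (0.0508 and 0.0633). The same held with a normexp offset of 0 (limma adjusted p = 0.125 and 0.234), while the other falls passed in these settings. Signals of NM_007104 were 13.54, 13.55 and 15.42 in control and 12.84, 12.60 and 15.04 in knockdown, a mean ratio of -0.68 ± 0.28 (SD, n = 3; limma adjusted p = 0.0312). NM_000981 had 14.79, 14.15 and 15.98 in control and 14.00, 13.72 and 15.30 in knockdown, a mean ratio of -0.63 ± 0.18 (SD, n = 3; limma adjusted p = 0.0267). Each of the 6 was lower after knockdown on every array, and pooled over arrays the signals of the groups overlapped in all of them. None of the 6 falls passed the test with median centring on all probes, and on the tested accessions that of NM_000967 did. With all probes as the base, NM_000981, NM_007104 and NM_012423 had means above 0, of 0.35, 0.26 and 0.020, and NM_015414, NM_000967 and NM_001004 had -0.13, -0.30 and -0.44. The called falls are thus falls relative to probes of like brightness. NM_000967, NM_015414 and NM_012423 lie among 98 other accessions of the brightest 5% with mean ratios from -1.3 to -0.9, which form a heap at the lower edge of the ratios, and its part in these falls was not tested.

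**Figure D2:**
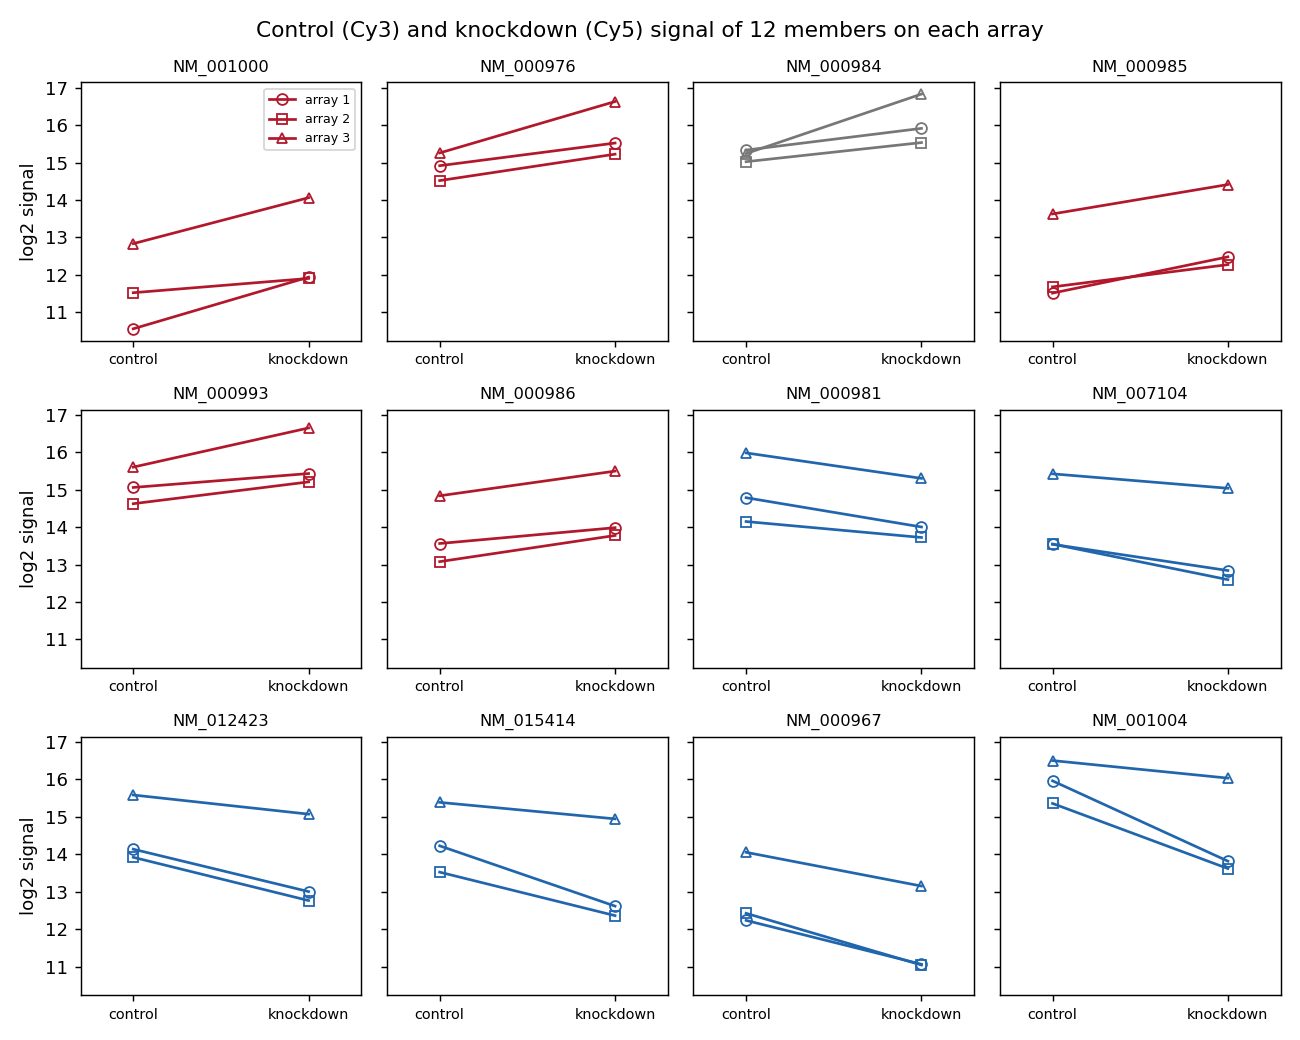
Normalized log2 signal (y axis) in control (Cy3) and knockdown (Cy5) RNA for the 11 called members and NM_000984, with 1 line for each array. Lines rise in NM_001000, NM_000976, NM_000984, NM_000985, NM_000993 and NM_000986 and fall in the other 6, and replicate 3 (triangles) had the highest signals in every panel except in the control RNA of NM_000984. With median centring on all probes in place of loess, NM_000981, NM_007104 and NM_012423 have means above 0. With centring on the tested accessions, NM_000981 has 0.032, NM_007104 -0.054 and NM_012423 -0.30.

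The 30 members that did not pass the test had mean ratios from -0.61 (NM_033625) to 0.89 (NM_000984), and limma adjusted p from 0.0552 to 0.998. Besides NM_000984, NM_000989, NM_000992, NM_000982 and NM_000987 lay above 0 on every array. NM_001034996, NM_000972, NM_000980, NM_000973, NM_000988 and NM_033625 lay below 0 on every array. Among these, NM_033625 had ratios of -1.27, -0.41 and -0.16, where replicate 1 was far below the others, and NM_000988 had -0.94, -0.46 and -0.15. Their limma adjusted p were 0.123 and 0.0956. Before adjustment, the 95% interval excluded 0 in 7 of the uncalled members, above 0 in NM_000984, NM_000982 and NM_000987 and below 0 in NM_000972, NM_000973, NM_000988 and NM_033625. The remaining 19 members had both signs among the arrays. In all, 22 of 41 members, 53.7%, had 1 sign on the 3 arrays, beside 58.6% of all accessions.

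Among members with both signs, the SD between arrays was larger than the mean in all but NM_000983. NM_006013 had ratios of 1.47, -0.072 and 0.25, with replicate 1 far above the others, and a mean of 0.55 ± 0.81 (SD, n = 3). NM_000969 ran the other way on replicate 3, with 1.07, 0.43 and -0.49 by its brightest probe. Its other tested probe lay above 0 on every array, at 1.58, 0.97 and 0.34. The 3 members with the brightest probes, NM_033251, NM_000978 and NM_000999, had means of -0.35, 0.15 and -0.040. On the single arrays NM_033251 had -0.53, -0.59 and 0.061, NM_000978 had -0.39, 0.19 and 0.63 and NM_000999 had -0.81, 0.024 and 0.66. In these 3 the highest ratio was that of replicate 3, and none passed the test with its brightest probe. NM_000971, among the 3 members with the dimmest probes, had 0.10, -0.28 and 0.18 and a mean of -0.00069, the nearest to 0 in the class, with a 95% interval of -0.33 to 0.33. The other dim probes were those of NM_001000, which rose, and NM_000967, which fell. Over the 41 members, brightness and mean ratio had a Pearson's r of -0.049, given as a description since all members share the arrays.

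Other probes of a member mostly gave the ratio of its brightest probe the same sign. Of 102 member probes, 98 were tested, and 29 members had at least 2. All tested probes had 1 sign in 24 of these 29 members. The spread of a member's probe means, highest minus lowest, had a median of 0.33 and reached 0.88. Pearson's r between the brightest and the next brightest probe was 0.85 across 29 members; such probes share the RNA and may share sequence, so this is a description. NM_000982 has the most probes, 10 of them, and all lay above 0, between 0.14 and 0.51; 1 of the 10 passed the test over all probes, where 18.4% of all probes did. The 6 probes of NM_033625 all lay below 0, from -0.65 to -0.14, with limma adjusted p of 0.0763 or more. In further uncalled members 1 probe other than the brightest passed the test over all probes. These were NM_000969 (0.97), NM_000979 (0.69), NM_000972 (-0.57), NM_001034996 (-0.60) and NM_033251 (-0.69), with limma adjusted p from 0.0307 to 0.0498. Of all tested member probes 25.5% passed, beside 18.4% of all probes. Among the called members, both probes of NM_001000, NM_000976 and NM_000967 passed in the same direction. With its next brightest probe, NM_000985 had 0.29, NM_000993 0.45 and NM_007104 -0.43, none of them a call. The limma adjusted p of these 3 were 0.0898, 0.131 and 0.0652. NM_012423 had 3 tested probes, from -0.93 to -0.19. NM_001004, NM_015414, NM_000986 and NM_000981 had 1 tested probe each, so their calls rest on a single probe.

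**Figure D3:**
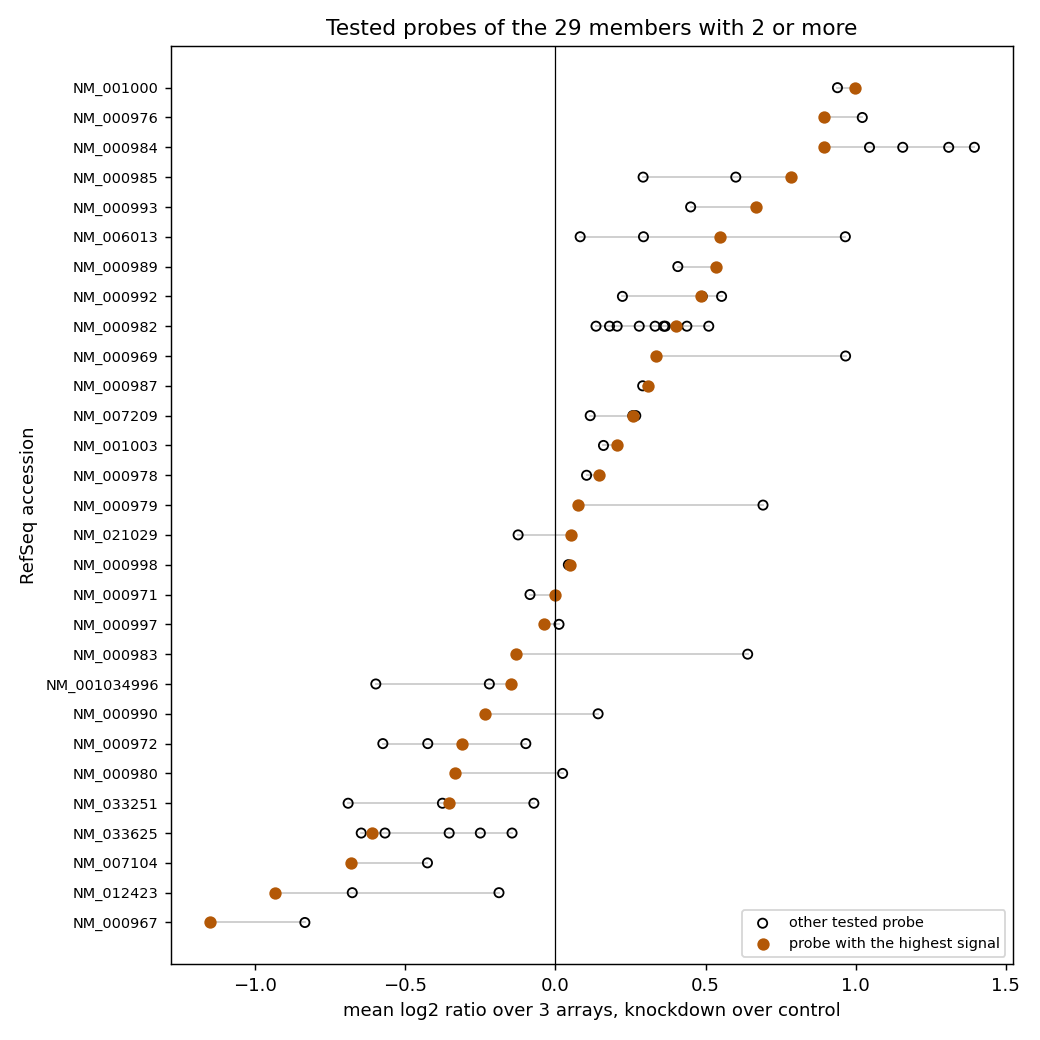
Mean log2 ratio of knockdown over control over 3 arrays (x axis) for every tested probe of the 29 members with at least 2 (y axis, ordered by the brightest probe). The filled point is the probe with the highest signal and open points are the others; in 24 members all points lie on 1 side of 0.

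In 5 members the probes disagreed in sign: NM_000980, NM_000983, NM_000990, NM_000997 and NM_021029. The widest gap among these was in NM_000983, whose brightest probe had a mean ratio of -0.13 and whose next probe had 0.64. The brightest probe of NM_000983 gave -0.17, -0.24 and 0.012 on the 3 arrays. The probes of NM_000980 had means of -0.33 and 0.024, and those of NM_000990 had -0.24 and 0.14. The NM_000990 probe with 0.14 was dim, at a mean log2 signal of 6.48. It exceeded background clearly on 1 array in control and on 3 in knockdown, so it entered the test through the knockdown channel alone. For NM_000997 the probe means were -0.037 and 0.012, and for NM_021029 -0.12 and 0.051. The lowest limma adjusted p among the probes of these 5 members was 0.149.

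The members, like other bright accessions, were less even between arrays than most accessions. The SD between arrays had a median of 0.42 over the members, 0.39 over the other accessions of the brightest 5% and 0.20 over all accessions. Replicate 3 gave the highest of the 3 ratios in 30 of 41 members and the lowest in 2, where it was the highest for 35.9% of all accessions. The members' median ratio was -0.18, -0.17 and 0.22 on replicates 1, 2 and 3, against 0.0048, 0.021 and 0.017 for all accessions. The other accessions of the brightest 5% had -0.061, -0.12 and 0.069, with the signs of the members' medians and smaller sizes. Pearson's r across the 41 members was 0.74 for replicates 1 and 2, 0.53 for 1 and 3, and 0.74 for 2 and 3, where all accessions had 0.75, 0.64 and 0.70. These correlations are descriptions, since members are not replicates and the arrays share slide and dye orientation.

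By their brightest probes, the members stood apart from most of the array. These probes lay between the 95.8 and 99.96 percentiles of signal, all within the brightest 5% of accessions. Of the 146 accessions in the brightest 1%, 22 were members. Every accession was represented by its brightest probe, and the members had more probes to choose from, 102 for 41 accessions beside 41000 for 32695. This brightness is thus drawn in part from the rule that chose the probes. Other probes of members were as dim as 6.10 in mean log2 signal (NM_002948), and 4 of the 102 did not pass the detection filter. Both channels of every array detected the brightest probe of all 41, with no flagged or saturated spot among the member probes. The 686 other accessions in the brightest 5% had a median log2 ratio of -0.012 and a median SD between arrays of 0.39. Of these, 124 rose and 159 fell, 41.3% in all, which is above the members' 26.8%; the difference was not tested. With median centring on all probes in place of loess, the median was 0.88 for these other bright accessions, 0.98 for the members and 0.31 for all accessions. The shift of the members under that setting was close to that of other bright probes. A change of the whole class and a dye balance that alters with brightness cannot be told apart on these arrays.

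**Figure D4:**
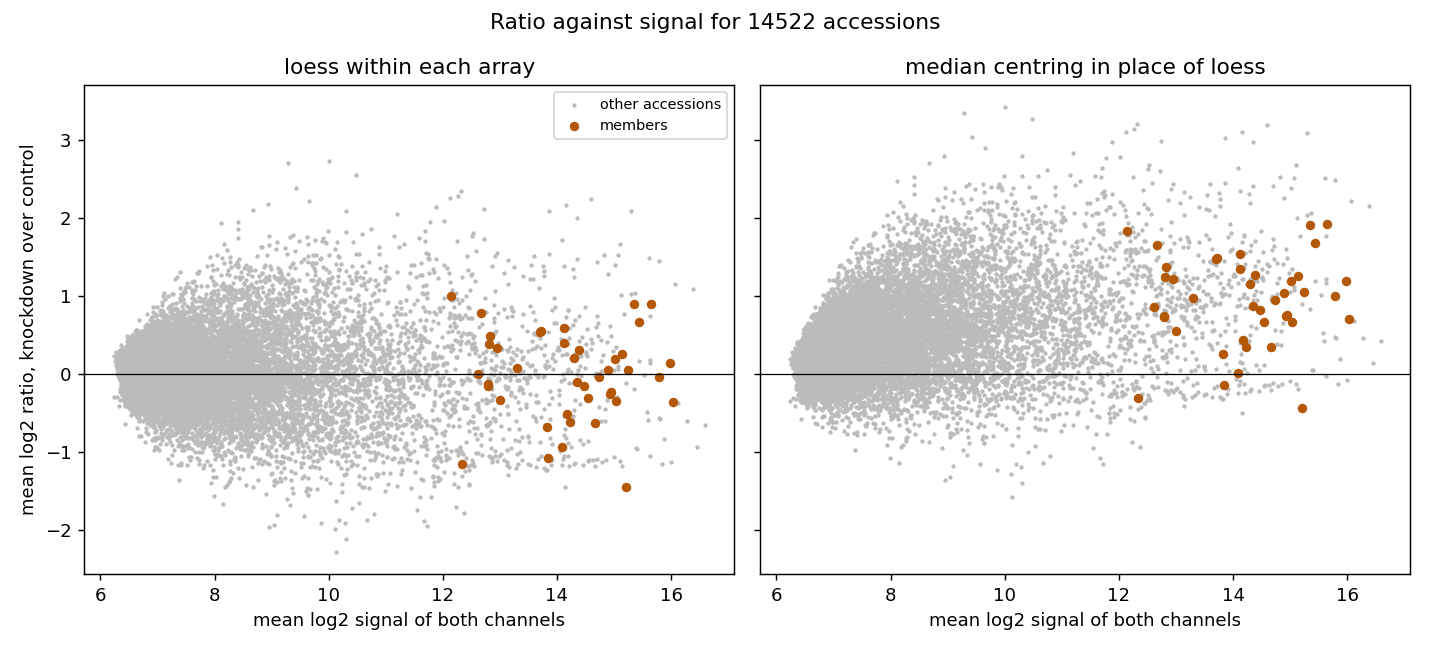
Mean log2 ratio of knockdown over control (y axis) against mean log2 signal of both channels (x axis) for 14522 accessions, with members in orange, after loess (left) and after median centring (right). Members scatter around a median of -0.00069 on the left and 0.98 on the right, at signals from 12.14 to 16.04.

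The order of the members changed little when median centring took the place of loess. Across them, Spearman's rho between the mean ratios after loess and after median centring was 0.99, a description of 2 treatments of the same arrays. Each array was also centred on the median of the members, a setting chosen after the data were seen, which asks whether a member stood above or below its own class. After loess, 8 members lay above and 7 below the class median (limma, adjusted p over all accessions), beside 10.9% and 8.32% of all accessions. These were the 11 members called before, with NM_000984, NM_006013 and NM_000989 above and NM_033625 below. NM_006013 lay 1.65, 0.10 and 0.027 from the class median, so its mean rests on replicate 1. Its limma adjusted p of 0.0336, at 0.59 ± 0.92 (SD, n = 3), was below the 0.0360 of NM_000981, at -0.59 ± 0.32. In this fit the members' adjusted p followed the size of the mean whatever the SD. The counts above and below thus amount to a cut on that size. Without loess, 5 lay above and 4 below, beside 3.02% and 42.4% of all accessions, and the adjusted p again followed the size of the mean. The median of all accessions was -0.63 in that setting, so these shares are not a like background for the members. The 5 above were NM_001000, NM_000976, NM_000984, NM_000985 and NM_000993, and the 4 below were NM_012423, NM_015414, NM_000967 and NM_001004. NM_001004 was furthest below, at -1.41 ± 0.65 (SD, n = 3) after loess and -1.37 ± 0.69 without it. NM_000967 lay -0.99, -1.21 and -1.12 from the class median on the 3 arrays after loess, the most even of the 4. NM_000976 lay 0.78, 0.88 and 1.15 from it.

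With 2 arrays in place of 3, fewer of the 11 members passed the test, while their means stayed within 1.5 times those of the full fit. Without replicate 2, limma called 0 of the 11 members and 0 of all accessions; at an unadjusted p under 0.05, 8 members rose and 6 fell there, beside 12.1% and 11.6% of all accessions. In that fit NM_000976 had a mean of 0.99, NM_000967 -1.04 and NM_001004 -1.31. Without replicate 1, 4 members rose and 2 fell, beside 6.19% and 5.56% of all accessions. There 6 of the 11 kept their call, and NM_001000, NM_000981, NM_007104, NM_015414 and NM_001004 missed it with limma adjusted p between 0.0592 and 0.0728. Their means were 0.80, -0.55, -0.67, -0.80 and -1.10. Without replicate 3, 5 rose and 9 fell, beside 9.14% and 9.4%. There 8 of the 11 kept it, and NM_001000, NM_000993 and NM_000986 missed it with limma adjusted p between 0.0546 and 0.0793 and means of 0.88, 0.48 and 0.56. All 11 kept the sign of their mean in each of these fits, which follows from their having 1 sign on all 3 arrays.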

How the data were processed

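The authors scanned the arrays to intensity values with Agilent Feature Extraction 10.9.1.1 on design 014850, annotated on human build hg19, per the file headers; the submitters' processing notes name Agilent Feature Extraction 10.9 and limma. The deposited scanner tables also hold a log10 ratio of Cy5 over Cy3. The authors' series table holds log2 ratios of unstated scale, centring and direction; they followed loess-normalized Cy5 over Cy3 (Pearson's r 0.996, 0.996 and 0.995; medians 0, 0.01 and 0.01).

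Median spot and background signals were corrected in R 4.3.3 with limma 3.58.1 (normexp, offset 50) and loess-normalized within each array, with control spots at weight 0 and flagged spots left out. An accession entered the test if, in 1 channel or both, its probe of highest signal exceeded background clearly (the scanner's flag) on each of the 3 arrays. The mean log2 ratio was tested against 0 (lmFit, eBayes, 2-sided), with p-values adjusted by Benjamini-Hochberg over 14522 accessions and a threshold of 0.05. The fit was tested on simulated data with independent normal noise and planted changes of at least 2-fold. That simulation held no effect of dye or brightness, so it says nothing of those limits or of smaller changes. The number of arrays limits the precision. Members, lists and tests were chosen with earlier results of these data known. The rule for named members took the 10 largest called changes, the 3 highest and 3 lowest means, the 3 brightest and 3 dimmest probes, and members whose probes differ in sign; others are named where a count turns on them. Planned lists of other genes (small subunit proteins, other TOP mRNAs, paralogs, assembly factors, mitochondrial proteins) and roles of single members need gene symbols and were not computed. Sequences were not used here. Alternatives are given in the closing section.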

Additional observations from a re-analysis of the deposited data

How the results depend on the processing

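Median centring on all probes gave 20 risen and 0 fallen members, a members' median of 0.98, and 2747 risen and 46 fallen accessions, 98.4% of calls upward against 51.5% with loess; the median of all accessions was 0.31. At an unadjusted p under 0.05, limma had 0 fallen members there. Median centring on the tested accessions gave 20 and 1 members, a median of 0.66, and 2539 risen accessions, 73.4% of calls upward. Normexp with offset 0 gave 8 risen members and 2317 risen accessions. Agilent's own log ratio gave 2303 risen accessions, and an intensity trend 2341 and 2126. No filter on dim probes gave 2 and 2 members and 829 and 821 accessions, with 32695 tested. Centring on the members' median gave 8 risen members after loess, and 438 risen and 6164 fallen accessions without it. With 1 replicate left out, risen members numbered 0 to 5 and fallen members 0 to 9, and all accessions 0 to 1327 and 0 to 1365 in these directions; the 0 was without replicate 2, where limma had 1755 and 1687 accessions at an unadjusted p under 0.05. What made the counts differ between settings was not tested.

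Of 399 values of 21 named members under 19 alternatives, 287 kept sign and side of the threshold. Another 50 kept the sign and lost a call, 14 kept the sign and gained a call, and 48 turned sign. Of those that turned, 3 and 1 were in called members, under median centring on all probes and on the tested accessions. Called members passed in 9 (NM_007104) to 17 (NM_000976, NM_000985 and NM_000967) of the 19 alternatives. Part of the 287 was fixed in advance. No member spot was flagged, so keeping flagged spots left the members' ratios as they were. Members with 1 tested probe kept that probe where the next brightest was used. Mean log2 ratios that turned were, under median centring on all probes, 0.35 for NM_000981, 0.26 for NM_007104, 0.020 for NM_012423, 0.70 for NM_033251, 1.00 for NM_000999, 0.87 for NM_000971, 0.95 for NM_000997, 0.74 for NM_000983, 0.76 for NM_000990 and 0.56 for NM_000980; on the tested accessions, 0.032 for NM_000981, 0.39 for NM_033251, 0.68 for NM_000999, 0.55 for NM_000971, 0.63 for NM_000997, 0.42 for NM_000983, 0.44 for NM_000990 and 0.24 for NM_000980. With offset 0 they were 0.26 for NM_000999, 0.11 for NM_000971, 0.20 for NM_000997 and 0.013 for NM_000990; without background correction, 0.11 for NM_000999, 0.025 for NM_000971 and 0.068 for NM_000997; with Agilent's ratio, 0.068 for NM_000971 and 0.039 for NM_000997; with the series table, 0.0067 for NM_000971; with array weights, 0.017 for NM_000999; with the mean of all tested probes, -0.037 for NM_021029 and 0.25 for NM_000983; with the next brightest probe, -0.12 for NM_021029, 0.012 for NM_000997, 0.64 for NM_000983, 0.14 for NM_000990 and 0.024 for NM_000980. Centred on the members' median they were 0.0035 for NM_000999, 0.043 for NM_000971 and 0.0063 for NM_000997 after loess, and 0.059 for NM_000999 and 0.0098 for NM_000997 without it. With 1 replicate left out, NM_000999 ran from -0.39 to 0.34, NM_000997 ran from -0.37 to 0.23, NM_000990 ran from -0.46 to 0.0082, NM_000971 ran from -0.089 to 0.14, NM_000978 ran from -0.097 to 0.41 and NM_021029 ran from -0.22 to 0.27. Centring on the members and the next brightest probe were chosen after the data were seen. The next brightest probe of NM_000990 exceeded background clearly in control on 1 array only. The test is itself paired, since each ratio sets knockdown against control of 1 replicate. The arrays form a single group, with no further pairing among them.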

Other observations

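Among the brightest 5% of accessions, log2 ratios were heaped near the lower edge of their range. Of the 686 that are not members, 98 had a mean ratio from -1.3 to -0.9, against 81 from -0.9 to -0.5 and 15 from -1.7 to -1.3. On the upper side there was no such heap, with 83 from 0.5 to 0.9, 34 from 0.9 to 1.3 and 30 from 1.3 to 1.7. The 98 accessions of the heap had signals from 11.83 to 16.45 (mean log2 of both channels) and median ratios of -1.50, -1.19 and -0.62 on replicates 1, 2 and 3, and 92 of them were called fallen. The fallen members NM_000967, NM_015414 and NM_012423 lie within this range of ratios, and NM_001004 lies below it. NM_015414 had -1.61, -1.16 and -0.44 and NM_012423 -1.13, -1.16 and -0.51 on the 3 arrays, the pattern of the heap's medians with the weakest fall on replicate 3. NM_000967 fell more evenly, with -1.17, -1.38 and -0.90. The limits of these ranges were set after the data were seen.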
